A study of Mus musculus with 4 samples.

Results

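The genes that carry pyruvate into the mitochondrion, oxidize it in the tricarboxylic acid (TCA) cycle and refill the cycle were compared between 4T1 cells of high and low mitochondrial membrane potential (MMP). The set held 33 genes, chosen by symbol from a list of the pathway, and all 33 were among the 20197 genes of the expression table. 4T1 is a mouse mammary tumor line used as a model of metastatic breast cancer. Wild-type 4T1 cells carried MitoSpy Red, a dye drawn into mitochondria by their membrane potential, at 20 nM, and the brightest and the dimmest 5% of cells were sorted. Both groups were stained, so no unstained or unsorted sample entered, and each group was a tail of the dye distribution of 1 cell line. Each of the 4 samples, 2 of high and 2 of low MMP cells, gave RNA from 100000 cells, of which 200 ng went into a stranded mRNA library. The labels number the samples 1 and 2 in each group. The study describes such replicates as independent experiments or tumors without tying the sample numbers to them. The p-values between groups measure the spread between these samples, while the exact binomial tests between replicates measure read sampling alone.

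Pyruvate made by glycolysis in the cytosol enters the mitochondrial matrix through the mitochondrial pyruvate carrier, and the pyruvate dehydrogenase complex converts it to acetyl-CoA, a step that kinases switch off and phosphatases switch on. The TCA cycle oxidizes the acetyl group and passes the electrons to the respiratory chain, whose proton pumping builds the membrane potential. Carbon withdrawn from the cycle for biosynthesis is replaced by anaplerosis, from pyruvate, glutamate or other amino acids. The comparison therefore asks whether cells at the ends of the membrane potential distribution differ in the transcripts of the enzymes that feed the chain.

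The promoters of 3 members are shown because their genes had the lowest p among the members that were lower in high MMP cells (Pdk1), the lowest p among those that were higher (Me1), and the largest gap between the low MMP replicates (Pck2). Each sequence is from RefSeq on build GRCm38.p6, runs from 250 bases before the annotated start to 20 bases after it, and is written in the direction of transcription. Capitals mark matches to a known motif searched on both strands. The Pdk1 window lies at chr2:71872974-71873243 on the plus strand, and capitals mark the core of the hypoxia response element (ACGTG or GCGTG). The Me1 window lies at chr9:86695895-86696164 on the minus strand, and capitals mark the antioxidant response element (TGACNNNGC). The Pck2 window lies at chr14:55540016-55540285 on the plus strand, and capitals mark the composite site of ATF4, a transcription factor of the amino acid response (TGATGNAA, here on the opposite strand).
Pdk1: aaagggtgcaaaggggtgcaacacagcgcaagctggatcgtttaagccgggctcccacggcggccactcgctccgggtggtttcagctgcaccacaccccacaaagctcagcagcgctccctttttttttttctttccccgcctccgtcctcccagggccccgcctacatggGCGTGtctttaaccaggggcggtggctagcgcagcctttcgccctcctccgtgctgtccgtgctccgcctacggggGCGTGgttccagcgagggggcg
Me1: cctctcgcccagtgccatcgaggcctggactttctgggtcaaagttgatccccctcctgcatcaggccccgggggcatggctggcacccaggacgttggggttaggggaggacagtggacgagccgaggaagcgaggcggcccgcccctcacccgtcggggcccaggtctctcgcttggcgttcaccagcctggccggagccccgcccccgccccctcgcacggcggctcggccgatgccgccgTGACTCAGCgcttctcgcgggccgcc
Pck2: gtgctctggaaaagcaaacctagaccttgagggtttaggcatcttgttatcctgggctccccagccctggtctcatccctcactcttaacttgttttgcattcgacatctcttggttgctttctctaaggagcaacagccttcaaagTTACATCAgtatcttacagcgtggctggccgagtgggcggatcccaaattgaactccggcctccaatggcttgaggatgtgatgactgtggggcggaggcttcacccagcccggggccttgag
The 2 cores in Pdk1 begin 78 and 2 bases before the start, the element in Me1 6 bases before it and the site in Pck2 103 bases before it. RefSeq lists 2 windows for Pdk1 and for Me1, of which 1 is shown. The core ACGTG also lies within the E-box CACGTG. The hypoxia core was present in 40.7% of all 32851 windows of this length and in 20 of the 30 members that had a window, the antioxidant element in 11.1% and in 6 of 30, and the ATF4 composite in 3.69% and in 2 of 30, Pck2 and Got1. These percentages count windows while the member counts are of genes, which can have several windows, so they cannot be compared directly. The motifs were picked after the values had been seen, and a match describes letters in a window, not a bound site.

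The 4 libraries held 22591970 to 26395015 reads assigned to genes, recovered from the deposited values. A value below is a normalized read count, the reads of a gene after scaling each library to 20000000, so that 1 read is worth 0.758 to 0.885. All 5 mammary epithelial markers were present, with summed values of 35712 to 48422 per library. Of these, Cdh1 read 3903 and 4726 in high and 5421 and 5426 in low MMP cells, under 0.05 before adjustment (adjusted p = 0.498 by limma). For the others, the values of the groups overlapped. The 3 leukocyte and 2 endothelial markers in the table were at 15 reads or fewer in every library, the erythroid markers were not in it, and of its 3 fibroblast markers only Pdgfra was above 10 on average, at 319 and 363 in high and 536 and 589 in low MMP cells, under 0.05 before adjustment (adjusted p = 0.472 by limma). The G2/M list of 10 genes summed to 73577 and 76683 in high and 42250 and 45202 in low MMP cells. Top2a alone held 37134 and 38824 of the high and 18715 and 20473 of the low MMP sums. By limma 7 of the 10 genes were higher at p under 0.05 before adjustment, beside 3.95% of all genes. Ccnb2 was the 1 gene of the list that was lower, at 2982 and 2605 in high and 3039 and 3081 in low MMP cells, not under 0.05. The S-phase list of 10 genes summed to 47854 and 36156 in high and 56171 and 58330 in low MMP cells. At the same limit 6 of its genes were lower, beside 6.01% of all genes. In bulk RNA, fewer cells of a type or cycle phase and less RNA per cell cannot be told apart.

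All 33 members were expressed, with means over the 4 libraries from 26.2 (Pdk2) to 8732 (Cs), and 26 of them exceeded 1000. Together they took 0.455% and 0.406% of the reads of high MMP cells, and 0.429% and 0.435% of those of low MMP cells, so the groups overlapped. Differences are high minus low MMP on the scale log2(value + 1), fitted with limma. Of the 33 members, 0 were called at an adjusted p under 0.05 by limma with Benjamini-Hochberg adjustment over all genes, where 0% of the table was called, and the smallest adjusted p was 0.472. On simulated counts with an assumed spread, this fit also called 0% of 100 genes changed 2-fold. A count of 0 therefore cannot show whether members changed by that much. Before adjustment 1 member, or 3.03%, was under 0.05, against 9.96% of all genes. Without high MMP replicate 1 the count was 2, and without either low MMP replicate it was 0. The member was Pdk1, which was lower in high MMP cells, while 6.01% of all genes were both under this limit and lower. No member was higher at this limit, against 3.95% of all genes. The median difference of the members was -0.022, beside -0.044 over all genes and -0.035 over the 12902 genes whose mean was at least 10. Of the members 14 were above 0 and 19 below, while median-of-ratios scaling, which shifts all genes alike, put 20 above 0. The median difference was -0.090 without high MMP replicate 1 and 0.086 without high MMP replicate 2. In absolute size the median was 0.068 for the members and 0.126 for those 12902 genes, which were not matched to the members in expression level.

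**Figure D1:**
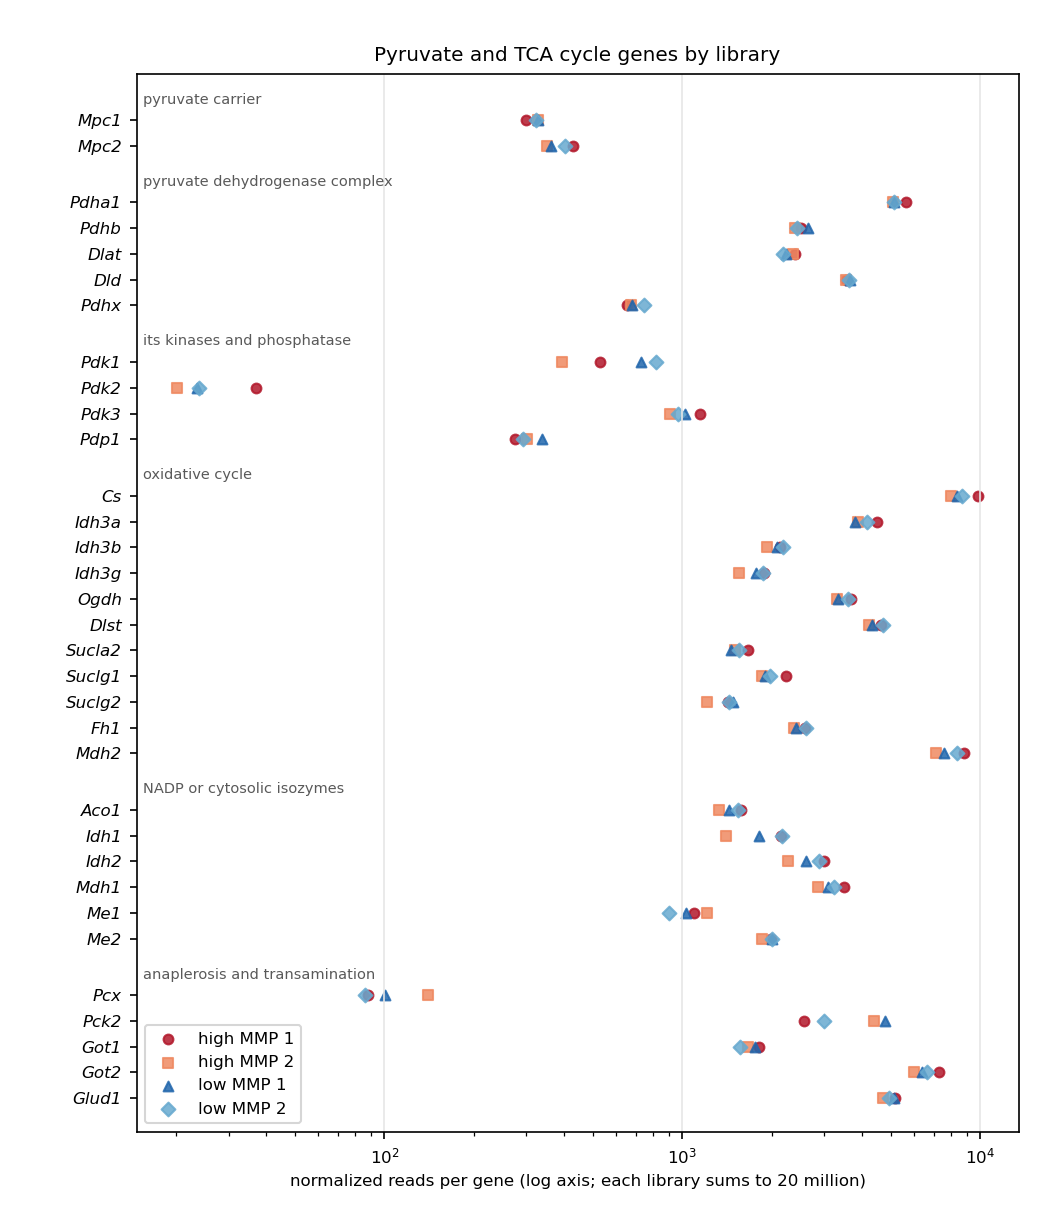
Normalized read counts of the 33 members in each library, on a log axis with each library scaled to 20000000 reads and the genes grouped by step. The 4 symbols of most genes lie close together, while the high MMP points of Pdk1 (530 and 395) both lie below its low MMP points (725 and 819).

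The standard errors ran from 0.073 to 0.372 with a median of 0.115, and for 28 of the 33 members the 95% interval of limma lay within 1.5-fold in either direction, which is 0.585 on the log2 scale. The 5 others were Pdk1, Pdk2, Idh1, Pcx and Pck2. The groups did not overlap for 7 members, or 21.2%, against 38.0% of the 12902 genes with a mean of 10 or more, and for 4 members under median-of-ratios or quantile scaling. Dlat and Me1 were the 2 whose high MMP values were both above the low MMP values, and Dld, Pdhx, Pdk1, Suclg2 and Me2 the 5 whose high MMP values were both below. For 4 members, Dlat, Dld, Pdk1 and Me1, the difference between the groups exceeded the gap between the replicates in both groups. For this count and for the intervals within 1.5-fold, the share over all genes was not computed.

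**Figure D2:**
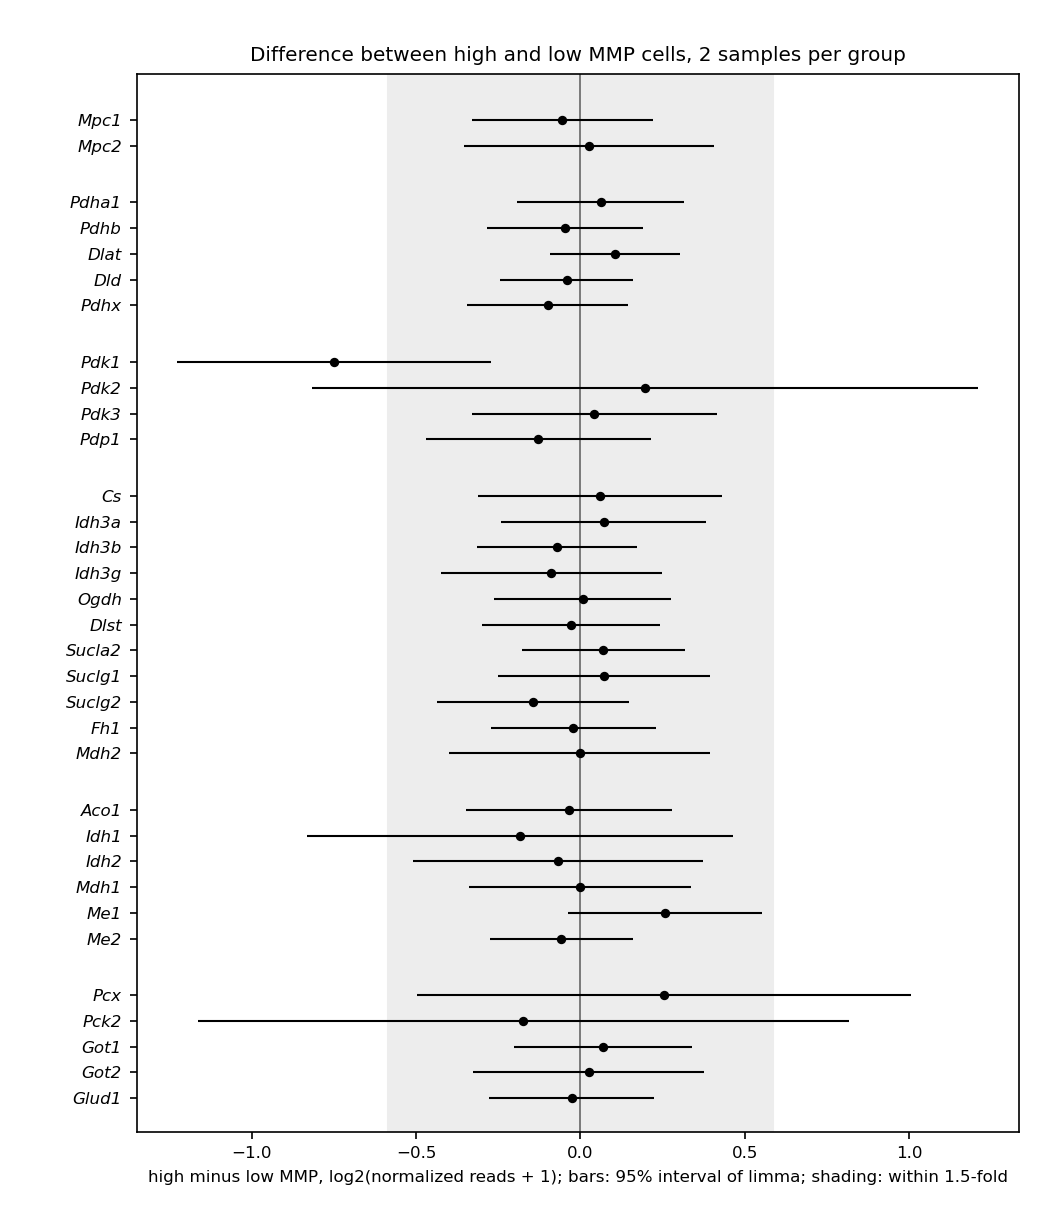
Difference between high and low MMP cells for each member on the scale log2(value + 1), with points for the fitted value, bars for the 95% interval of limma and shading for changes within 1.5-fold. The interval of Pdk1 lies below 0, those of the other 32 members include 0, and 28 stay within the shading.

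The mitochondrial pyruvate carrier is a heteromer of the products of Mpc1 and Mpc2. Mpc1 read 299 to 329 over the 4 libraries and differed by -0.055 (SE 0.101). Mpc2 read 352 to 430 and differed by 0.026 (SE 0.140). For both, the values of the groups overlapped, and the adjusted p were 0.941 and 0.994 (limma). In GENCODE another annotated gene overlaps Mpc2 on the same strand and Mpc1 has a named pseudogene, so some reads of the carrier genes may have been assigned elsewhere.

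The 5 members of the pyruvate dehydrogenase complex stayed within 0.106 of equality on the log2 scale. Pdha1 and Pdhb encode the subunits of the pyruvate-decarboxylating component, at 5113 to 5649 and 2392 to 2645 normalized reads, with differences of 0.061 (SE 0.093) and -0.048 (SE 0.087). Dlat, the acetyltransferase core, read 2385 and 2355 in high and 2230 and 2175 in low MMP cells. It differed by 0.106 (SE 0.073, adjusted p = 0.752 by limma), and both high MMP values were above both low MMP values. Dld encodes the lipoamide dehydrogenase that this complex shares with the alpha-ketoglutarate dehydrogenase complex. Its values were 3541 and 3544 in high and 3656 and 3638 in low MMP cells, replicates that lay closer to each other than the groups, with a difference of -0.042 (SE 0.075). Pdhx, which anchors the lipoamide dehydrogenase to the core, read 653 and 675 in high and 679 and 745 in low MMP cells, and differed by -0.099 (SE 0.090). None of the 5 was under 0.05 before adjustment.

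Among the regulators of the complex, Pdk1 stood apart from the other members. Pdk1 (ENSMUSG00000006494, chr2:71873224-71903858, plus strand, GRCm38) encodes a kinase that phosphorylates and inactivates pyruvate dehydrogenase and is a known target of hypoxia-inducible factor, and its promoter is the first of those printed above. It read 530 and 395 in high MMP cells and 725 and 819 in low MMP cells, which rest on 700, 472, 832 and 925 reads. Both high MMP values lay below both low MMP values, and the ratio of the group means was 1.67 in favor of low MMP cells. The difference was -0.75 (SE 0.176, 95% interval -1.23 to -0.27, n = 2 per group), under 0.05 before adjustment and with an adjusted p of 0.472 in limma. The call depended on the model. In edgeR on the recovered reads the adjusted p was 0.689, where 0% of genes were called, and with the replicate number as a replicate block it was 0.0317, where 0.525% of genes were called. DESeq2 gave an adjusted p of 0.0501, with 0.985% of genes called. With crossed numbers as the block, chosen after seeing the data, the adjusted p was 0.435 in limma and 2.59e-07 in edgeR, where 3.63% of genes were called. Without the low MMP replicate 1 or 2, the unadjusted p of limma was 0.0631 or 0.102. The S-phase and G2/M sums given above also separated the high from the low MMP libraries, and their part in the difference of Pdk1 was not tested.

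The other kinases were not under 0.05 before adjustment in limma. Pdk2 (chr11:95026258-95041354, minus strand), the kinase isoform found in most tissues, was the least expressed member, at 37.1 and 20.1 in high and 23.5 and 23.9 in low MMP cells, on 49, 24, 27 and 27 reads. High MMP replicate 1 was above the other 3 libraries, and the difference of 0.20 (SE 0.372, adjusted p = 0.944 by limma) was smaller than the gap of 0.85 between the high MMP replicates. Pdk3, a further kinase isoform, read 912 to 1148 and differed by 0.042 (SE 0.137). Pdp1 encodes a catalytic subunit of the phosphatase that reactivates the complex, and it read 274 to 337 with a difference of -0.13 (SE 0.126). Within a library, and per kilobase of exon, Pdk3 was the most abundant of the 3 kinases, at 38.2 to 56.1 times Pdk2. Pdk1 was 5.81 and 7.997 times Pdk2 in high and 12.5 and 13.9 times in low MMP cells. Relative to Pdp1, Pdk1 stood at 1.12 and 0.762 in high and 1.25 and 1.63 in low MMP cells.

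The 11 members of the oxidative cycle had a median difference of -0.0028 and lay between -0.14 and 0.072. Citrate synthase (Cs), which joins acetyl-CoA to oxaloacetate, read 8007 to 9862 and differed by 0.059 (SE 0.137). Malate dehydrogenase 2 (Mdh2), which regenerates oxaloacetate in the matrix, read 7122 to 8850 and differed by -0.0028 (SE 0.146). In both, the highest and the lowest library were high MMP replicates 1 and 2. Of the subunits of the NAD-dependent isocitrate dehydrogenase, the catalytic Idh3a differed by 0.071 (SE 0.115), and Idh3b and Idh3g by -0.071 (SE 0.090) and -0.089 (SE 0.123). The alpha-ketoglutarate dehydrogenase component Ogdh and its succinyltransferase partner Dlst differed by 0.0072 (SE 0.099) and -0.028 (SE 0.0996). Fumarase (Fh1), which hydrates fumarate to malate, differed by -0.022 (SE 0.092). The adjusted p of these 8 genes were 0.882 or higher in limma.

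Succinyl-CoA ligase, the step of the cycle that makes a nucleoside triphosphate directly, pairs a common alpha subunit (Suclg1) with a beta subunit that makes ATP (Sucla2) or GTP (Suclg2). Suclg1 differed by 0.072 (SE 0.118) and Sucla2 by 0.070 (SE 0.091). Suclg2 read 1425 and 1215 in high and 1477 and 1432 in low MMP cells, all high values below all low values, with a difference of -0.14 (SE 0.107, adjusted p = 0.766 by limma). The ratio of Sucla2 to Suclg2 per kilobase was 1.35 and 1.44 in high and 1.14 and 1.26 in low MMP cells. The ratio was higher in both high MMP libraries, a log2 difference of 0.21 (exact permutation p = 0.333, two-sided, the smallest that 2 against 2 can give).

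The NADP-linked and cytosolic isozymes run the same reactions outside the oxidative cycle or with NADP. Idh1 (chr1:65158616-65186500, minus strand), the cytosolic NADP-dependent isocitrate dehydrogenase, read 2147 and 1408 in high and 1807 and 2160 in low MMP cells. High MMP replicate 2 was below the other 3, and the difference of -0.18 (SE 0.238, adjusted p = 0.886 by limma) was smaller than the gap of 0.61 between the high MMP replicates. Its mitochondrial counterpart Idh2 read 2267 to 2988 and differed by -0.069 (SE 0.162). Cytosolic aconitase (Aco1) and cytosolic malate dehydrogenase (Mdh1, part of the malate-aspartate shuttle) differed by -0.035 (SE 0.115) and -0.00023 (SE 0.124).

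Malic enzymes convert malate to pyruvate and yield NADPH in the cytosol (Me1) or mainly NADH in mitochondria (Me2). Me1 (ENSMUSG00000032418, chr9:86581371-86695953, minus strand) read 1096 and 1214 in high and 1030 and 906 in low MMP cells. Both high MMP values were above both low MMP values, with a difference of 0.26 (SE 0.109, 95% interval -0.039 to 0.55), not under 0.05 before adjustment and with an adjusted p of 0.568 in limma. Me2 read 1992 and 1851 in high and 1995 and 2005 in low MMP cells, and differed by -0.059 (SE 0.080). Between malic enzymes, the ratio Me1 to Me2 per kilobase was 1.04 and 1.24 in high and 0.973 and 0.851 in low MMP cells, a log2 difference of 0.32 (exact permutation p = 0.333). Which of the pair was the more abundant depended on the gene length used, since the mean ratio was 1.02 with all annotated exons and 0.436 with the principal transcripts.

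Among the genes of anaplerosis and transamination, Pck2 and Pcx varied most within a group. Pck2 (chr14:55540266-55551242, plus strand), the mitochondrial phosphoenolpyruvate carboxykinase that withdraws oxaloacetate, read 2558 and 4403 in high and 4782 and 2996 in low MMP cells. High MMP replicate 2 and low MMP replicate 1 were high and the other 2 low, so its replicates differed by 0.78 and 0.67 while the groups differed by -0.17 (SE 0.364, adjusted p = 0.952 by limma). Pyruvate carboxylase (Pcx, chr19:4510472-4621752, plus strand), which makes oxaloacetate from pyruvate, read 87.9 and 140 in high and 100.3 and 85.9 in low MMP cells. Its difference of 0.25 (SE 0.276, adjusted p = 0.855 by limma) came with 1 high library, high MMP replicate 2, and 3 close to each other. The aspartate aminotransferases Got1 (cytosolic) and Got2 (mitochondrial) differed by 0.068 (SE 0.0995) and 0.025 (SE 0.129). Glutamate dehydrogenase (Glud1), which feeds glutamate into alpha-ketoglutarate, read 4734 to 5167 and differed by -0.027 (SE 0.092).

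Ratios between members do not depend on the library total. Their pairings were chosen with earlier results of these data known, and some pairings share a gene. A share over other pairs of genes was not computed. Of 11 ratios computed, 6 had groups that did not overlap, each with an exact permutation p of 0.333, the smallest possible here, and without high MMP replicate 1 the count was 10. Beside Sucla2 to Suclg2 and Me1 to Me2, these were Pdk1 to Pdk2, with a log2 difference of -0.95, Pdk1 to Pdp1 with -0.62, Pdha1 to Pdhb with 0.11 and Pcx to Pck2 with 0.43. The cytosolic-to-mitochondrial ratios overlapped between groups, at 0.0026 for Mdh1 to Mdh2, -0.12 for Idh1 to Idh2 and 0.043 for Got1 to Got2, as did Pdk3 to Pdk2 (-0.16) and Mpc1 to Mpc2 (-0.080). The Mdh1 to Mdh2 ratio was the steadiest of the 11, at 0.535 to 0.565 in every library, although both genes differed by more between the high MMP replicates.

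**Figure D3:**
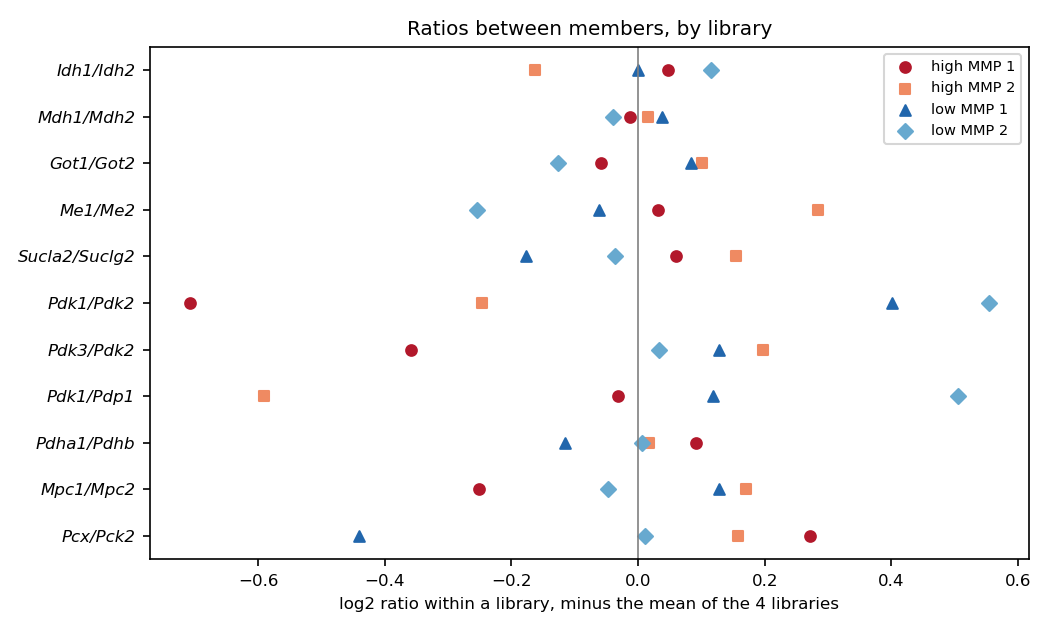
Log2 ratio of a pair of members within each library, minus the mean of the 4 libraries for that pair. The high MMP points of Pdk1/Pdk2 and Pdk1/Pdp1 lie below their low MMP points, those of Me1/Me2 and Sucla2/Suclg2 above, and the 4 points of Mdh1/Mdh2 nearly coincide.

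Levels of different genes can be set side by side only per kilobase. With all annotated exons as the length, the mean level was highest for Mdh2 (2239 per kilobase), Cs (1511), Pdha1 (1410) and Got2 (1362), and lowest for Pdk2 (8.27), Pcx (21.8), Mpc2 (52.7) and Pdp1 (66.7). With the principal transcript as the length, Mdh2 and Cs stayed at the top (5477 and 2984) and Pdk2 and Pcx at the bottom (11.7 and 25.5), while Mpc2 moved to 377 per kilobase. The matrix malate dehydrogenase and citrate synthase were thus the most abundant transcripts of the set under either length, and pyruvate carboxylase and Pdk2 the least.

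The libraries differed from each other in a way that crossed the groups. High MMP replicate 1 held the highest value of 18 members and high MMP replicate 2 the lowest value of 22, and both were so in 14 members. Relative to each member's mean over the 4 libraries, the median deviation was 0.081 and -0.081 in high MMP cells, against -0.030 and 0.018 in low MMP cells. High MMP replicate 1 exceeded replicate 2 in 26 of 33 members, by a median of 0.144, while over the 12902 genes it did so in 47.6%, with a median of -0.021. Low MMP replicate 1 minus replicate 2 had a median of -0.050 in the members, beside -0.0018 over the 12902 genes. The members that went against this order in high MMP cells were Mpc1, Dld, Pdhx, Pdp1, Me1, Pcx and Pck2. By the same-numbered samples, high minus low MMP had a median of 0.098 for number 1, above 0 in 23 members, and of -0.115 for number 2, below 0 in 26 members. Over the 12902 genes the medians were -0.042 for number 1 and -0.033 for number 2, with 44.8% of genes above 0 for each number. An exact binomial test on the recovered reads gave p under 0.05 before adjustment between the replicates for 27 members in high and 16 in low MMP cells, out of 33 in each group. This test measures read sampling alone, and its share over all genes was not computed. The median absolute gap between replicates was 0.211 in high and 0.102 in low MMP cells for the members. Over the 12902 genes it was 0.213 and 0.110. Those genes were not matched to the members in expression level, and 26 of the 33 members had a mean over 1000.

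**Figure D4:**
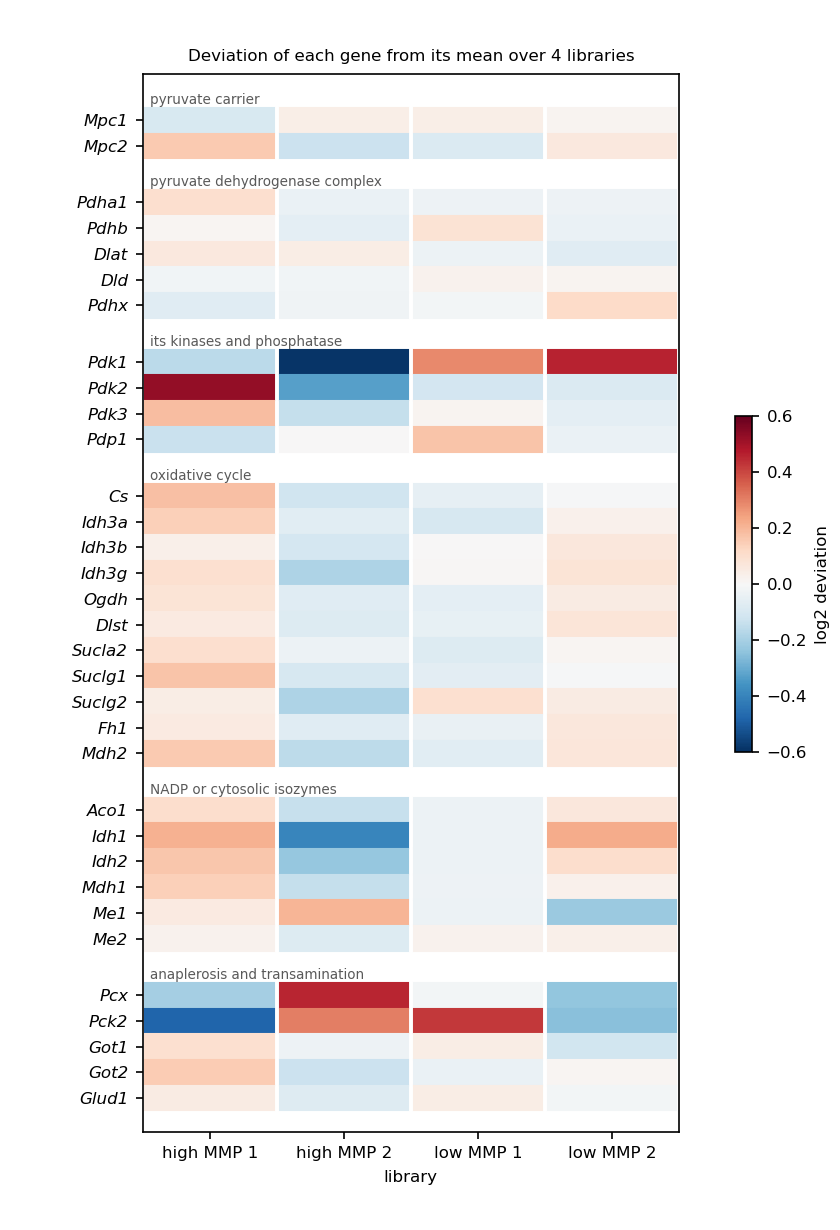
Deviation of log2(value + 1) of each member from its mean over the 4 libraries, red above and blue below that mean. High MMP 1 is mostly red and high MMP 2 mostly blue through the oxidative cycle, Pdk1 is blue in both high MMP libraries, and Pck2 is red in high MMP 2 and low MMP 1.

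Further genes of the pathway, outside the set, were read the same way. Of 41 listed, 39 were in the table, and their differences ran from -0.68 to 0.34 with a median of -0.026. By limma 0 had an adjusted p under 0.05, none was higher at p under 0.05 before adjustment and 2 were lower, beside 3.95% and 6.01% of all genes. Gls2, the liver-type glutaminase that makes glutamate from glutamine, read 278 and 342 in high and 517 and 471 in low MMP cells, and differed by -0.68 (SE 0.141, adjusted p = 0.472 by limma). Sdhaf1, an assembly factor of succinate dehydrogenase, read 60.6 and 65.3 in high and 104 and 89.4 in low MMP cells, and differed by -0.61 (SE 0.171, adjusted p = 0.472 by limma). In both, the high MMP values lay below the low MMP values, and the groups did not overlap in 8 of the 39 genes, beside 38.0% of the genes with a mean of 10 or more. With edgeR and crossed numbers as the block, 1 of the 39 was called, beside 3.63% of all genes.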

How the data were processed

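RNA-sequencing values of 4 samples of sorted 4T1 cells were analysed, with groups taken from the sample titles. The authors aligned reads to the mouse transcriptome, counted them per gene with STAR, scaled each library to its total and kept genes seen in at least 2 samples. The submitters' processing notes name STAR, HTSeq and build GRCm38 (mm10). Versions, annotation release and the handling of reads matching several genes are not given in the sources used here. The deposited values are thus a normalized signal per gene, with each column summing to 20000000. Within a column all values were multiples of 1 step, and dividing by it gave whole reads, within 0.1, for 100% of values. The table held 0 columns that belong to no sample.

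Identifiers were matched to symbols, positions and exon lengths in GENCODE release M21, with a match for 19993 of 20197. Testing used limma 3.58.1 on log2(value + 1) (eBayes with a trend) in R 4.3.3, high against low MMP, with Benjamini-Hochberg adjustment over all 20197 genes. This scale shrinks the changes of genes with low values. Ratios were compared by a two-sided exact permutation test. Alternatives were pseudocounts of 0.1 and 10, a mean of at least 10, median-of-ratios and quantile scaling, no variance trend, the replicate block, edgeR 4.0.16 and DESeq2 1.42.0 on the recovered reads, and leaving out each sample. The main fit held the group only, since the study's methods state no block, and the replicate number entered as an alternative. Over 12902 genes, replicate 1 minus replicate 2 correlated at r = -0.42 between high and low MMP cells. Whether same-numbered samples were sorted together is not stated. Scripts were tested on simulated counts with an assumed spread. Of 100 genes changed 2-fold there, limma called 0% at an adjusted p under 0.05, edgeR without a block 93% and DESeq2 94%. All 3 gave the right sign for 100% of them. Every member was named, in full those under p 0.05 before adjustment and the 3 with the largest difference in each direction. Other genes of the pathway were named in the report at p under 0.05. Members, pairings of ratios, lists and motifs were chosen with earlier results of these data known. GENCODE places another gene on the same strand over 5 members (Mpc2, Cs, Idh2, Mdh1, Me1) and lists pseudogenes named after 2 (Mpc1, Got2), whose counts are less certain.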

Additional observations from a re-analysis of the deposited data

How the results depend on the processing

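Members had 24 to 13015 reads per library, and depth limited Pdk2 most, at 24 to 49 reads. The count of calls depended on the tool. Of 33 members, 0 were called in limma under the planned settings, including the replicate block, and in edgeR without a block and DESeq2. With the replicate block in edgeR 1 member, Pdk1, was called, and 1, again Pdk1, with crossed numbers as the block in edgeR. The crossed pairing was chosen after seeing the data, since replicate 1 minus replicate 2 correlated at -0.42 between the groups over 12902 genes. Before adjustment the count rose from 1 to 2, Pdk1 and Me1, under median-of-ratios scaling, edgeR without a block, and the crossed numbers in limma and in edgeR. Leaving out each sample gave 0 to 2, with Pdk1 and Suclg2 without high MMP replicate 1 and 0 without either low MMP replicate. In fits with 1 sample in a group, that sample is assumed to vary like the other group.

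The median difference ranged from -0.090 to 0.086 on leaving out each sample, and the latter was without high MMP replicate 2. Members above 0 were 14 as deposited, 20 under median-of-ratios scaling, edgeR or DESeq2, 7 without high MMP replicate 1 and 23 without high MMP replicate 2. The count of non-overlapping members was 4 under median-of-ratios and under quantile scaling, and 12 to 28 on leaving out samples, where a lone sample overlaps less by construction. The median deviation of low MMP replicate 2 was -0.0065 under median-of-ratios scaling, against 0.018 as deposited. Ratios that did not overlap were 6 to 10. Pdk1 ranged from -0.96 to -0.54.

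The signs of Dlst, Fh1, Mdh2, Aco1, Mdh1 and Glud1, at -0.035 to -0.00023 as deposited, turned positive under 5 settings that rescale the libraries. By construction, median-of-ratios scaling (factors 0.982 and 0.994 in high, 1.014 and 1.019 in low MMP libraries) raises all genes of high MMP cells alike, and the median of all genes moved from -0.044 to -0.0093 with it, to -0.014 in DESeq2 and to -0.018 in edgeR. In that order their differences were 0.014, 0.020, 0.039, 0.0060, 0.041 and 0.014 under median-of-ratios scaling. They were 0.010, 0.016, 0.042, 0.0068, 0.044 and 0.012 under edgeR. They were 0.0098, 0.016, 0.035, 0.0023, 0.037 and 0.010 under edgeR with the replicate block. They were 0.015, 0.021, 0.047, 0.011, 0.049 and 0.016 under DESeq2. They were 0.0098, 0.016, 0.035, 0.0026, 0.038 and 0.010 under edgeR with crossed numbers. Leaving out 1 sample turned the sign of 24 members, whose range over the 4 such fits follows each: Mpc1 (-0.12 to 0.013), Mpc2 (-0.12 to 0.17), Pdha1 (-0.010 to 0.13), Pdk2 (-0.23 to 0.63), Pdk3 (-0.12 to 0.21), Cs (-0.091 to 0.21), Idh3a (-0.035 to 0.18), Ogdh (-0.071 to 0.085), Suclg1 (-0.063 to 0.21), Pck2 (-0.56 to 0.22), Got2 (-0.12 to 0.17), Idh3b (-0.14 to 0.0012), Idh3g (-0.23 to 0.053), Dlst (-0.095 to 0.040), Fh1 (-0.084 to 0.041), Mdh2 (-0.16 to 0.15), Aco1 (-0.16 to 0.086), Idh1 (-0.49 to 0.12), Idh2 (-0.27 to 0.13), Mdh1 (-0.14 to 0.14), Pcx (-0.077 to 0.59), Glud1 (-0.090 to 0.036), Pdhb (-0.11 to 0.014) and Got1 (-0.013 to 0.15). Those signs rest on single samples. The other settings changed no sign, and the replicate block changed no call in limma.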

Other observations

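Pck2 was high in high MMP replicate 2 and low MMP replicate 1, and some amino acid genes of the pathway list had their highest values in the same 2 libraries. These genes were picked after their values were seen. Gpt2, the mitochondrial alanine aminotransferase, read 2554 and 3784 in high and 3650 and 2367 in low MMP cells. Aldh18a1 and Pycr1, enzymes of proline synthesis from glutamate, read 4846 and 5913, and 329 and 460, in high MMP cells. In low MMP cells Aldh18a1 read 5993 and 4276, and Pycr1 449 and 302. For all 3, as for Pck2, the replicates differed by more than the groups, whose differences were 0.081 (SE 0.2996) for Gpt2, 0.081 (SE 0.210) for Aldh18a1 and 0.079 (SE 0.272) for Pycr1. Glul, the glutamine synthetase of the same list, was low in those 2 libraries, at 1147 and 846 in high and 877 and 1106 in low MMP cells.

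Outside the set, Pdk4, the kinase isoform linked to fasting and fat oxidation, was at 1 read or none in each library. Of the subunits of succinate dehydrogenase, Sdha read 4674 and 4679 in high and 4991 and 5132 in low MMP cells and differed by -0.11 (SE 0.079). The differences of Sdhb, Sdhc and Sdhd, 0.024 (SE 0.098), 0.13 (SE 0.149) and 0.069 (SE 0.165), were each smaller than their SE. None of the 4 was under 0.05 before adjustment in limma.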
